A study of Mus musculus with 18 samples.

Results

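The genes described here are 46 interleukin ligands, soluble antagonists, interleukin receptor chains and interferon receptor chains, measured in cystic and non-cystic regions of mouse kidneys that had lost Pkd1. They were chosen by name, and all 46 were found among the 32285 genes of the count table. Of these, 45 had at least 10 counts over the 18 libraries, and Il12a, with 4 counts, did not. The levels were not used in the choice, but earlier results of these libraries were known when it was made.

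Interleukins are secreted proteins by which immune, stromal and epithelial cells signal to each other over short distances, and most act through a receptor made of a private chain and a chain shared with other cytokines. The IL-1 family works through receptors that recruit MyD88, whereas the common gamma chain family, the IL-10 family, the IL-12 family and the interferons work through Janus kinases and STAT transcription factors. In the kidney, IL-33 and IL-1α are known as alarm signals released by damaged cells, IL-15 as a product of tubular epithelium, and macrophages as both a source and a target of many of the others.

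The study, by its title, looked for paracrine factors near early cysts. RNA was sequenced from microdissected pieces of frozen kidney sections of male C57BL/6 iKspCre-Pkd1del mice. These mice carry a Cre that is specific to the kidney and induced by tamoxifen, and loxP sites around exons 2 to 11 of Pkd1. The Ksp promoter is active in tubular epithelium, so immune and stromal cells are expected to keep the gene. All libraries are labelled Pkd1 KO. Tamoxifen was given by mouth at 12.5 mg/kg on days PN18 and PN19, and mice were killed at a mild cystic stage that was followed by MRI. The groups were F4/80-high cyst surroundings, F4/80-low cyst surroundings and non-cystic regions, with 6 libraries each. F4/80, the product of Adgre1, marks macrophages. Each group held 2 libraries from each of 3 kidneys, so all groups came from the same kidneys, and no kidney with intact Pkd1 was included. The labelled age is 269 for kidneys 1 and 3 and 297 for kidney 2, without a unit. The labels do not say whether the kidneys came from separate mice, so p-values describe how the differences between regions varied over these 3 kidneys.

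Levels are given in CPM, read counts divided by the library total, in units of 1000000, after scaling for library composition. Values listed by kidney (1, 2 and 3, in that order) are from the summed counts of the 2 libraries of that kidney and region type. Differences were tested with edgeR's quasi-likelihood test, with the kidney as a block and Benjamini-Hochberg adjustment over 16034 genes. A gene is called where the adjusted p is below 0.05, and ± after a log2 fold change is its standard error (SE). The fit tested 39 of the 46 genes, and 6 of them (Il1r2, Il18r1, Il2rb, Il21r, Tslp and Ifnlr1) passed the filter on low counts only through their F4/80-high sums. Since these are pieces of tissue, fewer cells of a type and less RNA per cell cannot be told apart.

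Total counts were 5841975 to 8662288 in F4/80-high, 7186518 to 9188813 in F4/80-low and 5366651 to 9002054 in non-cystic libraries. Mitochondrial genes took 1.49 to 4.06%, 7.71 to 11.1% and 10.6 to 15.4% of the counts in F4/80-high, F4/80-low and non-cystic libraries. One F4/80-low library (kidney 2, replicate 2) stood apart, with 8.90% of its counts from Spp1, and calls that end without it are named below. All 10 macrophage markers were higher in F4/80-high than in non-cystic regions, and 6 of the 10 in F4/80-low against non-cystic regions. The summed level of these 10 markers was 1279 to 2244 CPM in F4/80-high tissue, 265 to 355 CPM in F4/80-low tissue and 70.9 to 108 CPM in non-cystic tissue. Since the regions were chosen on F4/80, this checks the labels and is not a result. All 5 T cell markers were also higher in F4/80-high than in non-cystic regions (summed 31.0 to 38.7 CPM in F4/80-high tissue, 6.31 to 12.0 CPM in F4/80-low tissue and 2.64 to 6.19 CPM in non-cystic tissue), as were 3 of 3 monocyte, 4 of 5 dendritic cell, 2 of 4 NK cell, 2 of 4 B cell, 2 of 5 neutrophil and 5 of 5 fibroblast and matrix markers, and 1 of 4 endothelial markers. Type 2 innate lymphoid cell genes, which are shared with other cells, went both ways in that comparison. Areg was called higher (adjusted p = 0.00515, with 2 non-cystic counts), Rora was called lower (log2 fold change -0.54 ± 0.16, adjusted p = 0.0235) and Gata3 was not called (0.17 ± 0.47, adjusted p = 0.811). Of the 4 proximal tubule markers, 3 were lower (summed 104 to 654 CPM in F4/80-high tissue, 2099 to 3139 CPM in F4/80-low tissue and 2972 to 4332 CPM in non-cystic tissue). Of the mast cell genes, Mcpt4 was at 0 in every library, and Cpa3 and Tpsb2 were at 0 in F4/80-low and non-cystic libraries, while Ms4a2 had 43 counts in F4/80-high, 40 in F4/80-low and 12 in non-cystic libraries and was not called. The part that these shifts in marker level have in the differences below was not tested.

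In F4/80-high against non-cystic regions, 28 of the 46 genes (39 tested) were called higher and 2, Il15 and its receptor chain Il15ra, were called lower. Of the 33 members that did not need their F4/80-high sums to pass the filter, 23 were called higher. Over all 16034 genes tested, 19.7% were called higher and 19.5% lower in that comparison. Against F4/80-low regions, F4/80-high regions had 18 of the 46 called higher (15 of those 33), where 10.3% of all genes were, and 3 (Il15, Il15ra and Il17ra) called lower, where 14.0% of all genes were. In F4/80-low against non-cystic regions, 3 were called higher (Il1rn, Il2rg and Ifngr2), where 1.51% of all genes were, and 0 were called lower by edgeR, where 0.0249% of all genes were. At an unadjusted p below 0.05, 13 were higher, where 9.35% of all genes were, and 1 lower, where 2.35% of all genes were. The medians given next include the 6 members that passed the filter only through their F4/80-high sums, which favours higher values in F4/80-high regions. The median log2 fold change of the 39 tested members was 1.61 in F4/80-high against non-cystic regions (0.04 over all genes), 0.96 in F4/80-high against F4/80-low regions (0.04 over all genes) and 0.57 in F4/80-low against non-cystic regions (0.00 over all genes). Without the F4/80-low library that stood apart, 28, 18 and 0 members were called higher in these comparisons. Scaling by total counts alone moved the median of all genes to 0.65, 0.52 and 0.13, so a small fold change against the other regions depends on the scaling.

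**Figure D1:**
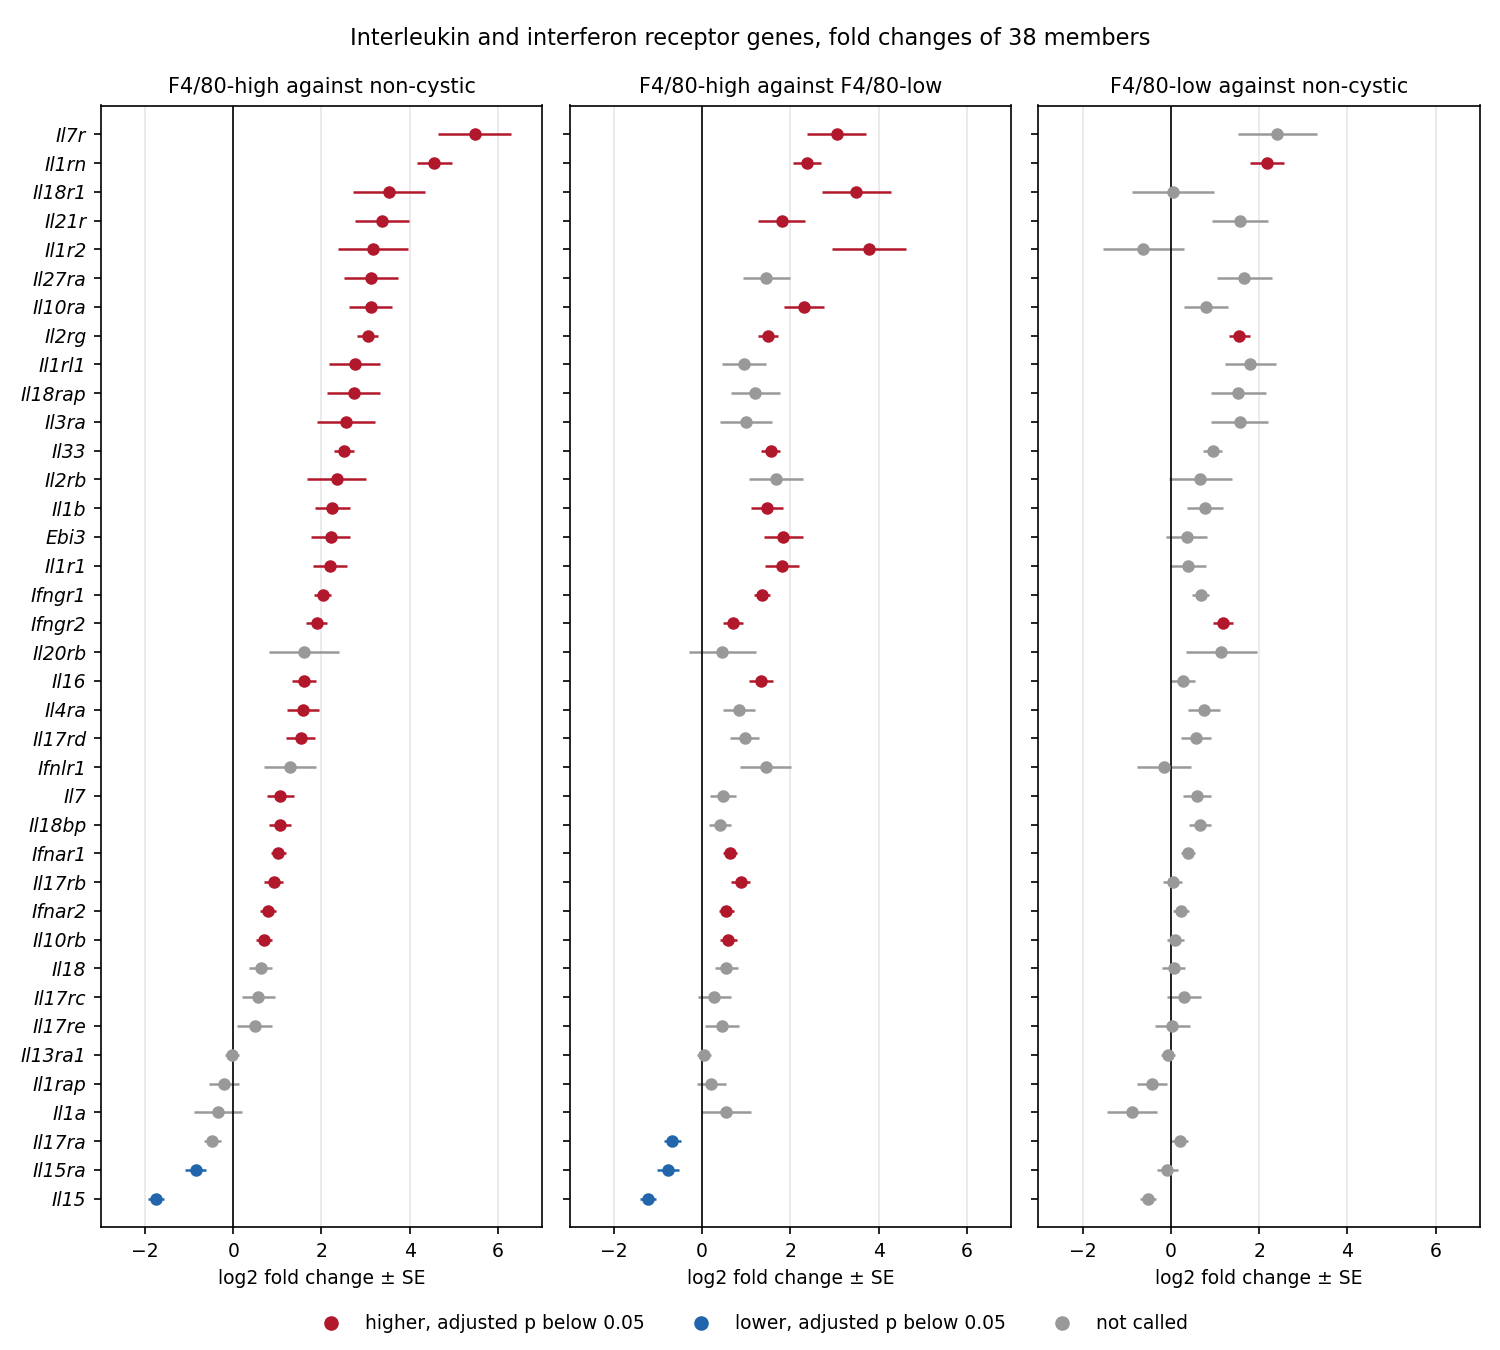
Log2 fold change (x axis, with SE bars from the edgeR fit over 3 kidneys) of 38 tested members, sorted by the left panel, in F4/80-high against non-cystic, F4/80-high against F4/80-low and F4/80-low against non-cystic regions. Red points were called higher (28, 18 and 3 members, of which Tslp, called in the left comparison, is not drawn because its non-cystic counts total 3), blue points were called lower (2, 3 and 0 members) and grey points were not called.

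The promoters of 5 members are shown as examples of the differences: the 3 called higher already in F4/80-low regions, the receptor gene with the largest fitted fold change (Il7r), and Il15ra, which was lower in F4/80-high regions. They are RefSeq sequences on GRCm38.p6, from 250 bases before to 50 bases after the listed start, written 5′ to 3′ along the gene. Capitals mark matches, on either strand, to a gamma-activated site (GAS, letters TTCNNNGAA, known to be bound by STAT factors), an interferon-stimulated response element (ISRE, 2 copies of GAAA with any 2 bases between them), the ETS core CCGGAAG or the NF-kB consensus. Il1rn has no match, Il2rg and Il15ra have the ETS core, Ifngr2 has the NF-kB consensus and Il7r has a GAS. None of the matches in these 5 windows overlap.
Il1rn, chr2:24336610-24336909, plus strand: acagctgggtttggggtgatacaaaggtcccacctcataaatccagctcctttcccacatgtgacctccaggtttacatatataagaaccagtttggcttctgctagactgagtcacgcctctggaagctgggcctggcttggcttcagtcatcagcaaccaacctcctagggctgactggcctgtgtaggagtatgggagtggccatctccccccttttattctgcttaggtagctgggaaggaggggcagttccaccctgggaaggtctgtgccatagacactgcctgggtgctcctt
Il2rg, chrX:101268206-101268505, minus strand: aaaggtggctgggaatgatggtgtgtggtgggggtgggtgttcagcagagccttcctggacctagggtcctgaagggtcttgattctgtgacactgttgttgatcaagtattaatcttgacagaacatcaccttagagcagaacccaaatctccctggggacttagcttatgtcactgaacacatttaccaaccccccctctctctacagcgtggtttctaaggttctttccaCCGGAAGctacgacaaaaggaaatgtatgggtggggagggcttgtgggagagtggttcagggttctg
Ifngr2, chr16:91546809-91547108, plus strand: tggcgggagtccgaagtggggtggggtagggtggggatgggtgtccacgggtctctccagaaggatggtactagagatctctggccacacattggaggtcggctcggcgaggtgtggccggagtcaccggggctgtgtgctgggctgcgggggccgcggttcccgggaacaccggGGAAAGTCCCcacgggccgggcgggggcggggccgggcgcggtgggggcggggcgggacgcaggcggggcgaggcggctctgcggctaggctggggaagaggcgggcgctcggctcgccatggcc
Il7r, chr15:9529827-9530126, minus strand: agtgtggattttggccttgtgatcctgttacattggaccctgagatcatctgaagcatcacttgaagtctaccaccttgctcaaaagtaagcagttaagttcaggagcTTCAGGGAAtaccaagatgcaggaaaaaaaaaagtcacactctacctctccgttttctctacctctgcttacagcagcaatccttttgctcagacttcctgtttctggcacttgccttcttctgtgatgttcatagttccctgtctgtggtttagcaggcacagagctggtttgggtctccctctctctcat
Il15ra, chr2:11705043-11705342, plus strand: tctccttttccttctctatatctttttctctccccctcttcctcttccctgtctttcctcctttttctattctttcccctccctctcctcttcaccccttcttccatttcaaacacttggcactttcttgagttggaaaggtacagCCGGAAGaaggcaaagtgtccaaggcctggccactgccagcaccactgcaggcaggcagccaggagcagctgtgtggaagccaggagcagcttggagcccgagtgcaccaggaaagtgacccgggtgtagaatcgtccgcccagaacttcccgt
This set holds 46 promoters of 35 members. A GAS was found in 5 of the 46 (in Ifnar1, Ifnar2, Il18r1, Il1r2 and Il7r), against 8.30% of all 32851 promoters. An ISRE was found in 1 of the 46 (Il1rap), against 3.44% of all promoters, the ETS core in 4 (Ebi3, Ifnar1, Il15ra and Il2rg), against 8.86%, and the NF-kB consensus in 6 (Ebi3, Ifngr2, Il16, Il1r1, Il2ra and Il4ra), against 4.51%. The motifs were chosen with these sequences in view, and a match describes letters only.

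The genes Il1rn, Il2rg and Ifngr2 were already higher around F4/80-low cysts than in non-cystic regions. Il1rn encodes the IL-1 receptor antagonist, which occupies the IL-1 receptor without signalling. Its level was 8.31, 33.7 and 20.9 CPM in F4/80-high tissue of kidneys 1, 2 and 3, 1.496, 5.39 and 5.11 CPM in F4/80-low tissue, and 0.0884, 2.05 and 0.777 CPM in non-cystic tissue. Every kidney held the same order of regions, although F4/80-low tissue of kidney 1 was below non-cystic tissue of kidney 2. The log2 fold change was 4.56 ± 0.39 in F4/80-high against non-cystic (adjusted p = 5.49e-05), 2.38 ± 0.33 of F4/80-high over F4/80-low (adjusted p = 0.00194) and 2.18 ± 0.39 in F4/80-low against non-cystic regions (adjusted p = 0.0271). Il2rg, the common gamma chain of the receptors for IL-2, IL-4, IL-7, IL-9, IL-15 and IL-21, stood at 55.2, 60.6 and 44.5 CPM in F4/80-high tissue, 18.5, 19.3 and 18.0 CPM in F4/80-low tissue and 8.13, 8.34 and 3.49 CPM in non-cystic tissue. All 6 libraries of each region type lay apart from those of the others, and the log2 fold changes were 3.05 ± 0.24 (adjusted p = 4.04e-05), 1.5 ± 0.22 (adjusted p = 0.00244) and 1.55 ± 0.24 (adjusted p = 0.0148) for the 3 comparisons in the same order. The gene shares 728 bp of exon with Gm20489 on the same strand. Ifngr2, the signalling chain of the interferon-γ receptor, had 84.4, 106 and 136 CPM in F4/80-high tissue, 63.4, 68.2 and 67.2 CPM in F4/80-low tissue and 30.9, 35.3 and 21.5 CPM in non-cystic tissue. Its kidney sums did not overlap between any of the region types, with log2 fold changes of 1.89 ± 0.23 (adjusted p = 0.000363), 0.71 ± 0.22 (adjusted p = 0.0450) and 1.18 ± 0.23 (adjusted p = 0.0372).

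The calls in F4/80-low against non-cystic regions rested on few libraries. Without F4/80-low kidney 2 replicate 2, the log2 fold change was 1.51 for Il1rn (adjusted p = 0.744), 1.35 for Il2rg (adjusted p = 0.129) and 0.97 for Ifngr2 (adjusted p = 0.225). Il2rg kept its call in the 17 other omissions of a single library. The call of Il1rn was also lost without F4/80-low kidney 3 replicate 1, F4/80-high kidney 2 replicate 1, or replicate 1 of non-cystic kidney 1, 2 or 3, and that of Ifngr2 without F4/80-low kidney 3 replicate 1, F4/80-high kidney 1 replicate 2, F4/80-high kidney 3 replicate 2, or replicate 1 of non-cystic kidney 1 or 2, with adjusted p up to 0.145 for Il1rn and 0.135 for Ifngr2. All 3 calls were lost without kidney 1 (adjusted p of 0.19 for Il1rn, 0.146 for Il2rg and 0.248 for Ifngr2). That of Il1rn was also lost without the kidney as a block (adjusted p = 0.424), in the fits of 18 libraries with the kidney as a block (0.122) or as a random effect (0.521), and with the 2 region types alone (0.0659), or 13 of 32 alternatives in all. Comparing single libraries, 3 members (Il2rg, Ifngr2 and Il27ra) had all 6 F4/80-low libraries above all 6 non-cystic ones, where 1.78% of the tested genes did. In F4/80-high regions, 23 members had all 6 libraries above all 6 non-cystic ones (14.3% of the tested genes). Among those 23, Il18r1, Il2rb, Il21r and Tslp had passed the filter through their F4/80-high sums alone, which favours this outcome. Against F4/80-low libraries, 8 members (Il1r1, Il2rg, Il7r, Il10ra, Ifnar1, Ifngr1, Il27ra and Il16) had all 6 F4/80-high libraries above all 6 (7.35%). In the other direction these were Il15 alone against non-cystic libraries (13.0% of the tested genes) and Il15ra alone against F4/80-low libraries (9.62%).

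Among the IL-1 family ligands, Il33 and Il1b were higher in F4/80-high regions, and Il1a did not pass the test. Il33 encodes a nuclear alarm cytokine that is released when stromal and epithelial cells are damaged. It stood at 48.3, 84.2 and 97.8 CPM in F4/80-high tissue, 19.0, 34.3 and 24.9 CPM in F4/80-low tissue and 10.4, 19.4 and 10.6 CPM in non-cystic tissue. The F4/80-high sums were all above the others, while F4/80-low tissue of kidney 1 and non-cystic tissue of kidney 2 met. Its log2 fold change was 2.51 ± 0.22 in F4/80-high against non-cystic (adjusted p = 7.50e-05), 1.56 ± 0.21 of F4/80-high over F4/80-low (adjusted p = 0.00194) and 0.95 ± 0.22 in F4/80-low against non-cystic regions, where it was not called (adjusted p = 0.0704). Il1b, the ligand that needs caspase-1 for its release, had 3.21, 6.14 and 12.3 CPM in F4/80-high tissue, 1.84, 2.17 and 3.16 CPM in F4/80-low tissue and 1.41, 1.02 and 1.71 CPM in non-cystic tissue. These sums were ordered by region type without overlap, and kidney 3 was highest in each. The log2 fold change of Il1b was 2.24 ± 0.40 against non-cystic (adjusted p = 0.00202) and 1.47 ± 0.37 against F4/80-low regions (adjusted p = 0.0193). The call against F4/80-low regions was lost without each of 3 libraries, with adjusted p up to 0.0559 without F4/80-high kidney 2 replicate 1. It was also lost without kidney 2 or kidney 3 (adjusted p up to 0.105). Il1a, an alarm cytokine that signals through the same receptor as Il1b, had 1.26, 0.891 and 0.663 CPM in F4/80-high tissue, 0.476, 0.657 and 0.752 CPM in F4/80-low tissue and 1.24, 1.46 and 0.854 CPM in non-cystic tissue. Sums in F4/80-high tissue overlapped both other groups, while the F4/80-low sums were all below the non-cystic ones (log2 fold change -0.88 ± 0.57, adjusted p = 0.657). Its log2 fold change of -0.33 ± 0.54 in F4/80-high against non-cystic regions (adjusted p = 0.661) turned to 0.26 with total-count scaling. Exons of Il1a overlap 222 bp of Gm14023 on the other strand, and those of Il1b 25 bp of Il1bos. Per kilobase of exon, the antagonist Il1rn stood to Il1b as 1.12 ± 0.683 in F4/80-high, 0.565 ± 0.288 in F4/80-low and 0.289 ± 0.353 in non-cystic regions (SD, n = 3 kidneys), a ratio whose spread within a region type was large.

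Of the IL-1 and IL-33 receptor chains, Il1r1, Il1r2 and Il1rl1 were called and Il1rap was not. Il1r1, the signalling receptor, had 12.8, 10.1 and 15.1 CPM in F4/80-high tissue, 4.15, 4.27 and 2.48 CPM in F4/80-low tissue and 1.41, 3.88 and 3.18 CPM in non-cystic tissue. F4/80-high tissue stood apart in every kidney, and the other region types overlapped, with log2 fold changes of 2.19 ± 0.39 against non-cystic (adjusted p = 0.00222) and 1.80 ± 0.38 against F4/80-low regions (adjusted p = 0.00960). Il1r2 encodes a decoy that binds IL-1 without signalling. It had 2.21, 3.02 and 2.04 CPM in F4/80-high tissue, 0.0680, 0.525 and 0.0752 CPM in F4/80-low tissue and 0.265, 0.805 and 0 CPM in non-cystic tissue. These are 140, 10 and 14 counts in all, and the log2 fold change was 3.16 ± 0.80 against non-cystic (adjusted p = 0.0114) and 3.79 ± 0.83 against F4/80-low regions (adjusted p = 0.0110). Il1rap, the accessory chain shared by the receptors for IL-1 and IL-33, averaged 6.04 ± 1.43 CPM in F4/80-high tissue, 5.36 ± 1.59 CPM in F4/80-low tissue and 7.09 ± 2.55 CPM in non-cystic tissue (SD, n = 3) and was not called (log2 fold change -0.21 ± 0.33 against non-cystic, adjusted p = 0.656, and 0.37 with total-count scaling). Il1rl1, the IL-33 receptor known as ST2, averaged 2.41 ± 0.554 CPM in F4/80-high tissue, 1.28 ± 0.336 CPM in F4/80-low tissue and 0.361 ± 0.195 CPM in non-cystic tissue. It was called against non-cystic (log2 fold change 2.75 ± 0.58, adjusted p = 0.00471) and not against F4/80-low regions (0.95 ± 0.50, adjusted p = 0.2). Neutrophil markers, which belong to cells known to carry Il1r2, summed to 5.68 to 28.3 CPM in F4/80-high tissue, 0.752 to 7.68 CPM in F4/80-low tissue and 3.36 to 10.8 CPM in non-cystic tissue, and the part of those cells was not tested.

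In the IL-18 group the receptor chains and the soluble inhibitor were higher in F4/80-high regions. Il18, which like Il1b is cut by caspase-1, had 12.5, 9.01 and 11.0 CPM in F4/80-high tissue, 8.63, 6.50 and 6.92 CPM in F4/80-low tissue and 5.39, 7.17 and 8.31 CPM in non-cystic tissue. The F4/80-high sums were above the rest, but the difference did not pass the test (log2 fold change 0.62 ± 0.26 against non-cystic, adjusted p = 0.0813, and 0.55 ± 0.25 against F4/80-low regions, adjusted p = 0.143). Il18bp, a secreted protein that binds IL-18 and blocks it, had 14.4, 11.1 and 12.2 CPM in F4/80-high tissue, 8.70, 10.7 and 8.65 CPM in F4/80-low tissue and 6.27, 4.61 and 7.14 CPM in non-cystic tissue. Its sums were ordered by region type without overlap, and only F4/80-high against non-cystic was called (log2 fold change 1.07 ± 0.25, adjusted p = 0.00787). That call was lost without kidney 1 or kidney 2 (adjusted p up to 0.0804). F4/80-low against non-cystic regions gave 0.65 ± 0.25 (adjusted p = 0.328). Il18r1, the chain that binds IL-18, had 6.94, 1.78 and 7.62 CPM in F4/80-high tissue, 0.0680, 0.197 and 1.35 CPM in F4/80-low tissue and 0.353, 0.512 and 0.311 CPM in non-cystic tissue. Kidney 2 was low among the F4/80-high sums and still above every other sum, with log2 fold changes of 3.54 ± 0.81 against non-cystic (adjusted p = 0.00764) and 3.49 ± 0.78 against F4/80-low regions (adjusted p = 0.0127). Without kidney 1 both calls of Il18r1 were lost (adjusted p of 0.0543 against non-cystic and 0.0907 against F4/80-low regions). Il18rap, the accessory chain, averaged 3.93 ± 2.31 CPM in F4/80-high tissue, 1.45 ± 0.223 CPM in F4/80-low tissue and 0.585 ± 0.465 CPM in non-cystic tissue and was called against non-cystic regions alone (log2 fold change 2.73 ± 0.60, adjusted p = 0.00579; against F4/80-low 1.21 ± 0.55, adjusted p = 0.140). Il1r2, Il1r1, Il1rl1, Il18r1 and Il18rap lie in 1 region of chromosome 1 on the plus strand, which also holds Il1rl2, from 40074079 to 40551705 (GRCm38). These 5 members were called higher in F4/80-high against non-cystic regions, but Il1r2 and Il18r1 had passed the filter through their F4/80-high sums alone.

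**Figure D2:**
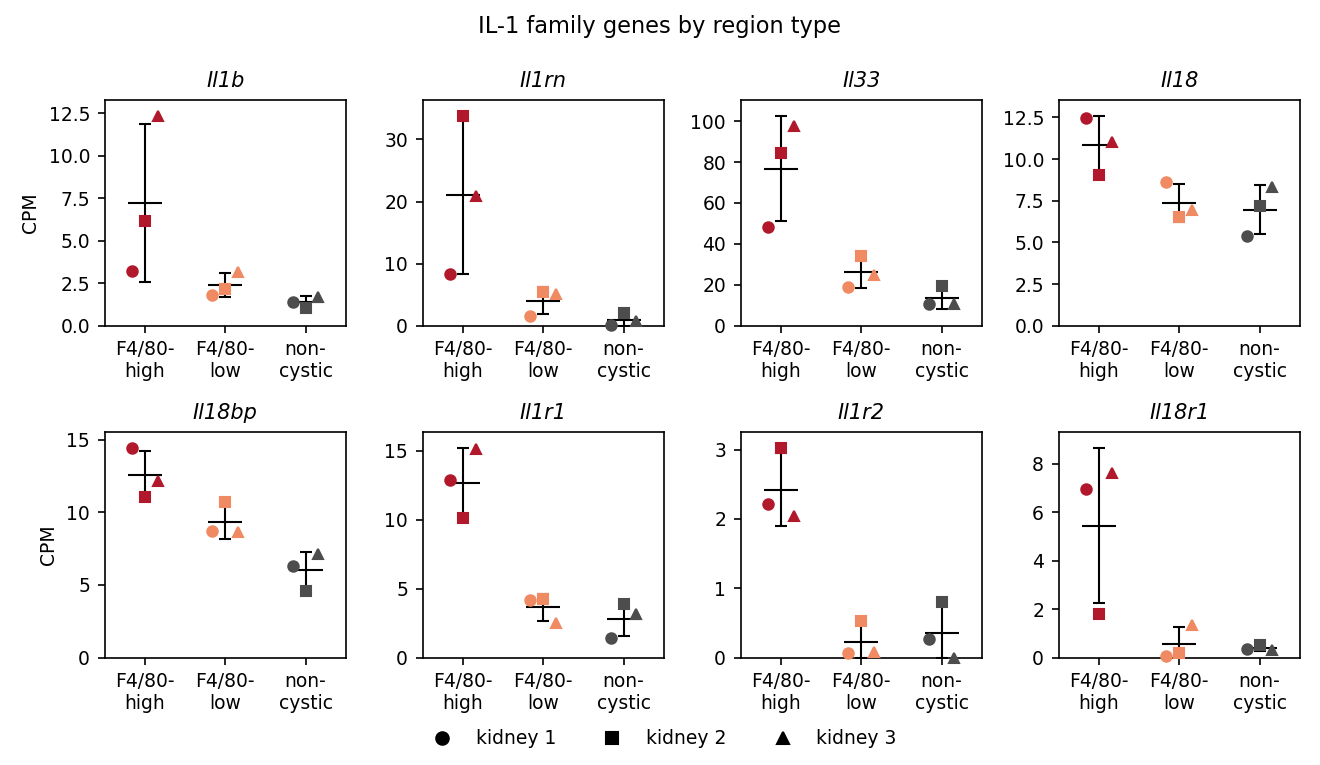
CPM (y axis, from 0) of 8 IL-1 family genes in F4/80-high, F4/80-low and non-cystic regions, with 1 symbol per kidney (summed counts of 2 libraries) and bars for the mean ± SD of 3 kidneys, stopped at 0. All F4/80-high points of Il1rn, Il33, Il1r1, Il1r2 and Il18r1 lie above all F4/80-low and non-cystic points, while those of Il18 are separated by less than their spread.

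In F4/80-high against non-cystic regions, the common gamma chain family held the largest fitted fold changes of the members in both directions. Il7r, the private chain for IL-7 and TSLP and a marker of resting T cells and innate lymphoid cells, had 7.89, 12.4 and 13.2 CPM in F4/80-high tissue, 1.36, 0.920 and 1.58 CPM in F4/80-low tissue and 0, 0.732 and 0 CPM in non-cystic tissue. The non-cystic libraries held 10 counts in all, from kidney 2 alone. Its log2 fold change was 5.47 ± 0.83 against non-cystic (adjusted p = 0.00135) and 3.06 ± 0.67 against F4/80-low regions (adjusted p = 0.0132), and F4/80-low against non-cystic regions gave 2.41 ± 0.89 (adjusted p = 0.322). Il7, its ligand, made mainly by stromal cells, had 8.99, 9.41 and 8.78 CPM in F4/80-high tissue, 3.67, 8.28 and 8.27 CPM in F4/80-low tissue and 4.33, 4.61 and 4.04 CPM in non-cystic tissue. F4/80-low tissue of kidney 1 was at the non-cystic level and that of the other kidneys close to the F4/80-high level, and Il7 was called in F4/80-high against non-cystic regions (log2 fold change 1.07 ± 0.31, adjusted p = 0.0199). That call was lost without each of 3 F4/80-high libraries, with adjusted p up to 0.0763 without kidney 2 replicate 1. Leaving out kidney 1 or kidney 2 also ended it (adjusted p up to 0.106). Il21r, the IL-21 receptor of lymphocytes, had 3.63, 2.97 and 7.46 CPM in F4/80-high tissue, 1.36, 0.525 and 2.18 CPM in F4/80-low tissue and 0.353, 0.585 and 0.233 CPM in non-cystic tissue. The F4/80-high sums stood apart, with log2 fold changes of 3.38 ± 0.61 against non-cystic (adjusted p = 0.00227) and 1.80 ± 0.53 against F4/80-low regions (adjusted p = 0.0340). The call against F4/80-low regions ended without each of 4 single libraries, with adjusted p up to 0.0856 without F4/80-low kidney 3 replicate 2. It also ended without each of the 3 kidneys (adjusted p up to 0.126).

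Il15 and Il15ra ran the other way. IL-15 is presented to neighbouring cells on its private receptor chain, the product of Il15ra. Il15 had 13.0, 9.16 and 7.07 CPM in F4/80-high tissue, 26.6, 20.1 and 21.0 CPM in F4/80-low tissue and 35.0, 31.3 and 29.8 CPM in non-cystic tissue. Its sums did not overlap between any region types, and all 3 kidneys held the same order. The log2 fold change was -1.75 ± 0.18 in F4/80-high against non-cystic (adjusted p = 0.000167), -1.23 ± 0.18 of F4/80-high over F4/80-low (adjusted p = 0.00244) and -0.52 ± 0.18 in F4/80-low against non-cystic regions, which was not called (adjusted p = 0.257). Il15ra had 15.7, 17.0 and 9.78 CPM in F4/80-high tissue, 23.3, 24.7 and 23.8 CPM in F4/80-low tissue and 30.4, 18.9 and 26.9 CPM in non-cystic tissue. The F4/80-high sums were below all others, and F4/80-low sums lay within the range of the non-cystic ones. Its log2 fold change was -0.85 ± 0.24 in F4/80-high against non-cystic (adjusted p = 0.0190), -0.77 ± 0.24 against F4/80-low (adjusted p = 0.0420) and -0.08 ± 0.24 in F4/80-low against non-cystic regions (adjusted p = 0.954). With total-count scaling, Il15 kept its call in F4/80-high against non-cystic regions (log2 fold change -1.15, adjusted p = 0.00225) and Il15ra lost it (-0.25, adjusted p = 0.390). Il15ra also lost that call without kidney 1 or kidney 3 (adjusted p up to 0.132) and with the biol rep 2 libraries alone. The call of Il15ra against F4/80-low regions was lost in 10 of 18 omissions of a single library, with adjusted p up to 0.0998, without each of the 3 kidneys (up to 0.14), and with total-count scaling (log2 fold change -0.29, adjusted p = 0.339), or 17 of 32 alternatives in all. Per kilobase of exon, Il15ra stood to Il15 as 0.753 ± 0.173 in F4/80-high, 0.549 ± 0.0924 in F4/80-low and 0.403 ± 0.0830 in non-cystic regions (SD, n = 3 kidneys). The proximal tubule markers given above were lower in the same regions as this pair, as were 2 of 2 distal convoluted tubule, 1 of 2 thick ascending limb, 1 of 3 principal cell and 2 of 3 intercalated cell markers. Of the general epithelial markers, Epcam was higher in F4/80-high against non-cystic regions (log2 fold change 1.43 ± 0.27, adjusted p = 0.00279) and Cdh16 lower (-0.80 ± 0.24, adjusted p = 0.0240). The part of tubule content was not tested.

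Of the remaining chains and the related ligand Tslp, Il13ra1 alone was not called. Il4ra, the IL-4 and IL-13 receptor chain, averaged 20.8 ± 12.4 CPM in F4/80-high tissue, 11.1 ± 2.82 CPM in F4/80-low tissue and 6.45 ± 1.25 CPM in non-cystic tissue. F4/80-high tissue of kidney 3 alone reached 35.0 CPM, and Il4ra was called against non-cystic regions (log2 fold change 1.58 ± 0.37, adjusted p = 0.00837). Without F4/80-high kidney 1 replicate 2 the call was lost (1.33, adjusted p = 0.0594). Il2rb, shared by the receptors for IL-2 and IL-15, averaged 1.69 ± 0.398 CPM in F4/80-high tissue, 0.573 ± 0.505 CPM in F4/80-low tissue and 0.315 ± 0.0646 CPM in non-cystic tissue (log2 fold change 2.34 ± 0.66 against non-cystic, adjusted p = 0.0186, and 1.95, adjusted p = 0.0545, without non-cystic kidney 3 replicate 1). Its call was also lost without kidney 1 or kidney 2 (adjusted p up to 0.1). Il13ra1, which pairs with Il4ra to bind IL-13, averaged 40.1 ± 2.34 CPM in F4/80-high tissue, 39.1 ± 4.62 CPM in F4/80-low tissue and 41.1 ± 5.77 CPM in non-cystic tissue. Its log2 fold change of -0.03 ± 0.16 against non-cystic regions (adjusted p = 0.917) became 0.59 with total-count scaling (adjusted p = 0.0212). Tslp, an epithelial cytokine that signals through Il7r and Crlf2, had 70 counts in F4/80-high, 12 in F4/80-low and 3 in non-cystic regions. By kidney these were 2.05, 0.743 and 0.884 CPM in F4/80-high tissue, 0.340, 0.0657 and 0.451 CPM in F4/80-low tissue and 0.177, 0 and 0.0777 CPM in non-cystic tissue. The ratio of F4/80-high to non-cystic regions was 15.4 (exact 95% counting interval 5.06 to 76.5), and the comparison was called (adjusted p = 0.00749). Il3ra, the IL-3 receptor chain, averaged 3.97 ± 1.24 CPM in F4/80-high tissue, 2.06 ± 1.01 CPM in F4/80-low tissue and 0.718 ± 0.601 CPM in non-cystic tissue and was called against non-cystic regions (log2 fold change 2.56 ± 0.65, adjusted p = 0.0115).

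Every tested chain of the receptors for type I interferon, interferon-γ and IL-10 was called higher in F4/80-high regions against both other region types. Ifngr1, the ligand-binding chain for interferon-γ, had 167, 163 and 175 CPM in F4/80-high tissue, 64.9, 63.8 and 67.8 CPM in F4/80-low tissue and 37.6, 52.1 and 34.6 CPM in non-cystic tissue. The sums did not overlap between region types, although the highest non-cystic library (57.4 CPM) was above the lowest F4/80-low library (53.1 CPM), with log2 fold changes of 2.03 ± 0.19 against non-cystic (adjusted p = 0.000101) and 1.36 ± 0.19 against F4/80-low regions (adjusted p = 0.00194). F4/80-low against non-cystic regions gave 0.67 ± 0.19 and was not called (adjusted p = 0.142). The ratio of Ifngr1 to Ifngr2 per kilobase of exon was 2.12 ± 0.467 in F4/80-high, 1.31 ± 0.0633 in F4/80-low and 1.90 ± 0.264 in non-cystic regions (SD, n = 3 kidneys). Ifnar1, a chain of the type I interferon receptor, had 40.2, 34.5 and 46.6 CPM in F4/80-high tissue, 29.6, 21.6 and 26.8 CPM in F4/80-low tissue and 17.9, 19.3 and 22.1 CPM in non-cystic tissue. Its partner Ifnar2 had 63.9, 52.0 and 72.9 CPM in F4/80-high tissue, 49.3, 43.6 and 35.6 CPM in F4/80-low tissue and 39.4, 33.6 and 36.3 CPM in non-cystic tissue. For both, the F4/80-high sums were above the rest and the others overlapped. The log2 fold changes against non-cystic regions were 1.02 ± 0.17 for Ifnar1 (adjusted p = 0.00131) and 0.79 ± 0.18 for Ifnar2 (adjusted p = 0.00684), and against F4/80-low regions 0.63 ± 0.16 (adjusted p = 0.0212) and 0.55 ± 0.18 (adjusted p = 0.0483).

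Il10ra, the private chain for the anti-inflammatory cytokine IL-10, had 6.42, 6.34 and 10.7 CPM in F4/80-high tissue, 1.22, 2.04 and 1.58 CPM in F4/80-low tissue and 0.619, 1.76 and 0.466 CPM in non-cystic tissue. The F4/80-high sums stood apart, and log2 fold changes were 3.11 ± 0.49 against non-cystic (adjusted p = 0.00111) and 2.31 ± 0.45 against F4/80-low regions (adjusted p = 0.00681). Il10rb, which IL-10 shares with IL-22 and the lambda interferons, had 42.7, 39.6 and 55.1 CPM in F4/80-high tissue, 39.4, 25.1 and 27.8 CPM in F4/80-low tissue and 33.8, 25.6 and 26.0 CPM in non-cystic tissue. F4/80-low tissue of kidney 1 came close to the lowest F4/80-high sum, and the log2 fold changes were smaller, 0.69 ± 0.19 against non-cystic (adjusted p = 0.0159) and 0.59 ± 0.19 against F4/80-low regions (adjusted p = 0.0453). Il10rb and Ifnar2 share 569 and 315 bp of exon with Gm21970 on the same strand. The calls of the small differences against F4/80-low regions rested on few libraries. Of 18 omissions of a single library, 11 ended that of Ifnar2 (adjusted p up to 0.132), 9 that of Il10rb (up to 0.0875), 8 that of Ifngr2 (up to 0.244) and 1 that of Ifnar1 (0.0518, without non-cystic kidney 1 replicate 1). Leaving out any of the 3 kidneys ended the calls of Ifnar1 (adjusted p up to 0.151), Ifnar2 (up to 0.231) and Il10rb (up to 0.239), and leaving out kidney 1 or 2 that of Ifngr2 (up to 0.163). Ifnlr1, the private chain for lambda interferons, averaged 1.62 ± 0.738 CPM in F4/80-high tissue, 0.574 ± 0.115 CPM in F4/80-low tissue and 0.626 ± 0.155 CPM in non-cystic tissue, and Il20rb, a shared chain for IL-19, IL-20 and IL-24, averaged 1.77 ± 0.852 CPM in F4/80-high tissue, 1.26 ± 0.590 CPM in F4/80-low tissue and 0.668 ± 0.721 CPM in non-cystic tissue. Neither passed the test in F4/80-high against non-cystic regions (log2 fold change 1.29 ± 0.58, adjusted p = 0.108, for Ifnlr1 and 1.61 ± 0.80, adjusted p = 0.140, for Il20rb). Ifnar2, Il10rb, Ifnar1 and Ifngr2 form a cluster on the plus strand of chromosome 16, from 91372783 to 91565623 (GRCm38). Its 4 genes were called higher against non-cystic regions by unequal amounts, from 0.69 for Il10rb to 1.89 for Ifngr2.

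**Figure D3:**
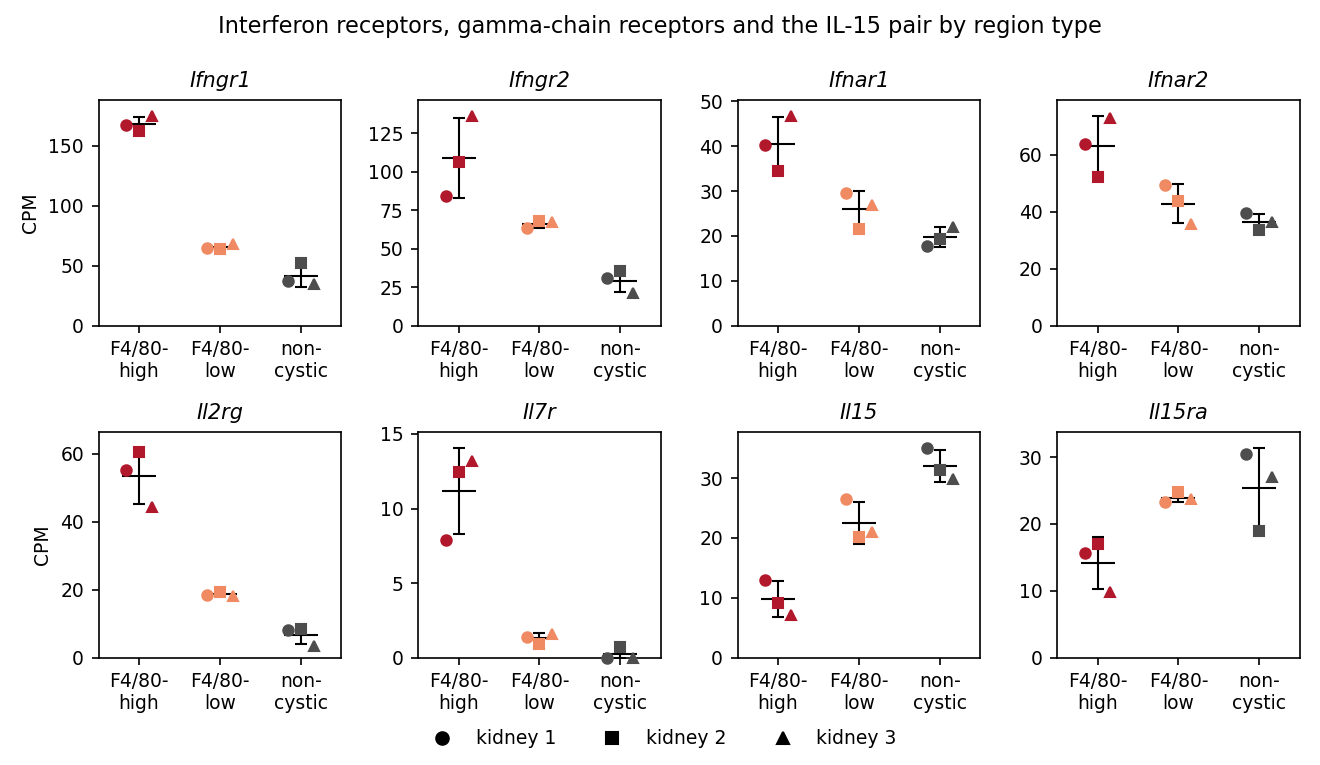
CPM (y axis, from 0) of 4 interferon receptor chains, 2 common gamma chain family receptors and the Il15 and Il15ra pair in F4/80-high, F4/80-low and non-cystic regions, with 1 symbol per kidney and bars for the mean ± SD of 3 kidneys, stopped at 0. Ifngr1 stands at 163 to 175 CPM in F4/80-high tissue against at most 67.8 CPM elsewhere, and Il15 shows the opposite order, with 7.07 to 13.0 CPM in F4/80-high tissue against at least 20.1 CPM elsewhere.

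In the IL-12 family, Ebi3 and Il27ra were higher in F4/80-high regions and the ligand subunits were scarce. Ebi3, a subunit of IL-27 and IL-35, had 5.31, 3.56 and 6.41 CPM in F4/80-high tissue, 1.77, 1.71 and 0.827 CPM in F4/80-low tissue and 1.06, 1.32 and 0.932 CPM in non-cystic tissue. The F4/80-high sums stood apart and the others overlapped, with log2 fold changes of 2.21 ± 0.45 against non-cystic (adjusted p = 0.00424) and 1.84 ± 0.44 against F4/80-low regions (adjusted p = 0.0156). The call of Ebi3 against non-cystic regions was lost without kidney 1 (adjusted p = 0.0537). Against F4/80-low regions its call was lost without kidney 1 or kidney 3 (adjusted p up to 0.0914) and with the biol rep 1 or 2 libraries alone. Exons of Ebi3 overlap 270 bp of Gm16712 on the other strand. Il27ra, the private receptor chain for IL-27, averaged 3.25 ± 0.726 CPM in F4/80-high tissue, 1.22 ± 0.211 CPM in F4/80-low tissue and 0.384 ± 0.306 CPM in non-cystic tissue. It was called against non-cystic regions (log2 fold change 3.12 ± 0.61, adjusted p = 0.00329), and its F4/80-low level lay between the others without a call in either direction (1.45 ± 0.53, adjusted p = 0.0726, in F4/80-high against F4/80-low, and 1.67 ± 0.61, adjusted p = 0.299, in F4/80-low against non-cystic regions). Il16, a chemoattractant for cells that carry CD4, had 12.0, 11.2 and 15.9 CPM in F4/80-high tissue, 5.23, 5.78 and 4.59 CPM in F4/80-low tissue and 3.62, 5.63 and 3.73 CPM in non-cystic tissue. Here too the F4/80-high sums alone stood apart, with log2 fold changes of 1.61 ± 0.28 against non-cystic (adjusted p = 0.00185) and 1.33 ± 0.27 against F4/80-low regions (adjusted p = 0.00825). Exons of Il16 overlap those of Stard5 by 1202 bp on the other strand. Since the library kit does not mark the strand, the count of Il16 is less certain.

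The IL-17 receptor chains did not move together. Il17ra, the chain that every IL-17 receptor shares, had 7.00, 9.31 and 9.67 CPM in F4/80-high tissue, 12.2, 15.5 and 13.5 CPM in F4/80-low tissue and 10.4, 12.1 and 13.3 CPM in non-cystic tissue. F4/80-high sums were the lowest, and the fall against F4/80-low regions was called (log2 fold change -0.67 ± 0.19, adjusted p = 0.0329). Against non-cystic regions the log2 fold change was -0.47 ± 0.20 (adjusted p = 0.0824), and 0.14 with total-count scaling. The call against F4/80-low regions was lost with total-count scaling (-0.19, adjusted p = 0.575) and in 5 of 18 omissions of a single library, with adjusted p up to 0.0850 without F4/80-high kidney 3 replicate 1. Leaving out kidney 1 or kidney 2 ended it too (adjusted p up to 0.213). Il17rb, the private chain for IL-25, had 23.9, 14.7 and 14.5 CPM in F4/80-high tissue, 10.2, 7.68 and 10.5 CPM in F4/80-low tissue and 11.9, 7.61 and 8.46 CPM in non-cystic tissue. Kidney 1 was the highest in F4/80-high and in non-cystic tissue, and the log2 fold changes were 0.92 ± 0.21 against non-cystic (adjusted p = 0.00739) and 0.87 ± 0.21 against F4/80-low regions (adjusted p = 0.0161, and 0.0821 without F4/80-high kidney 3 replicate 2). Without kidney 1 or kidney 2 both calls were lost (adjusted p up to 0.0698 against non-cystic and 0.148 against F4/80-low regions). Il17rd, a chain also known as a brake on FGF signalling, averaged 9.92 ± 1.90 CPM in F4/80-high tissue, 5.16 ± 1.72 CPM in F4/80-low tissue and 3.44 ± 0.664 CPM in non-cystic tissue and was called against non-cystic regions (log2 fold change 1.53 ± 0.33, adjusted p = 0.00517). Against F4/80-low regions it lay just outside the threshold (0.96 ± 0.32, adjusted p = 0.0534). Il17rc and Il17re, the private chains for IL-17A and IL-17C, were not called in any comparison, with log2 fold changes against non-cystic regions of 0.57 ± 0.38 (adjusted p = 0.260) and 0.49 ± 0.39 (adjusted p = 0.353).

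The 7 members that were not tested held between 4 and 57 counts over all libraries. Il12b, the p40 subunit of IL-12 and IL-23, had 49 counts in F4/80-high, 8 in F4/80-low and 0 in non-cystic regions. With a floor of 3 counts over the group, it was at least 10.8-fold higher in F4/80-high than in non-cystic regions, although 34 of the 49 counts came from kidney 1. Il2ra, the chain that gives the IL-2 receptor high affinity, had 27, 4 and 2 counts in F4/80-high, F4/80-low and non-cystic regions, a ratio of F4/80-high to non-cystic of 8.92 (exact 95% counting interval 2.24 to 77.4). Il12rb1, shared by the receptors for IL-12 and IL-23, had 30, 9 and 4 counts in F4/80-high, F4/80-low and non-cystic regions (ratio of F4/80-high to non-cystic 4.95, interval 1.75 to 19.4). The ligand Il10 had 19, 2 and 3 counts in those regions (ratio 4.18, interval 1.23 to 22.1), and Il27, the p28 subunit of IL-27, had 21, 4 and 5 counts (ratio 2.77, interval 1.02 to 9.42). These intervals cover counting error only, with each read taken as a separate molecule, and not the spread between kidneys. Il22ra1, the epithelial IL-22 receptor chain, had 6, 7 and 8 counts, and its ratio of 0.495 had an interval of 0.142 to 1.63. Il12a had 2, 2 and 0 counts.

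Levels of different members were compared per kilobase of exon. In F4/80-high regions the highest members were Ifngr1 (59.1 ± 2.10 CPM per kilobase, SD, n = 3 kidneys), Ifngr2 (28.9 ± 6.86), Il33 (26.6 ± 8.85), Il2rg (22.4 ± 3.43) and Ifnar2 (18.9 ± 3.15). The first stood clear of the rest, while the next 4 did not differ from their neighbours in this order beyond their spread. F4/80-low regions had Ifngr1 (23.0 ± 0.726), Ifngr2 (17.6 ± 0.681), Ifnar2 (12.9 ± 2.07), Il13ra1 (10.5 ± 1.24) and Il15 (9.98 ± 1.55) at the top. In non-cystic regions Ifngr1 (14.6 ± 3.28) and Il15 (14.2 ± 1.18) led and could not be separated, and Il13ra1 (11.1 ± 1.55) and Ifnar2 (10.9 ± 0.878) followed. Thus Il15 was the ligand with the highest level per length in non-cystic tissue, and Il33 was in F4/80-high tissue, at 4.67 ± 1.77 CPM per kilobase for Il33 in non-cystic and 4.32 ± 1.34 CPM per kilobase for Il15 in F4/80-high regions. The lowest tested members in non-cystic regions, Il7r and Il1rl1, stood at 0.0523 ± 0.0906 and 0.0524 ± 0.0282 CPM per kilobase.

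**Figure D4:**
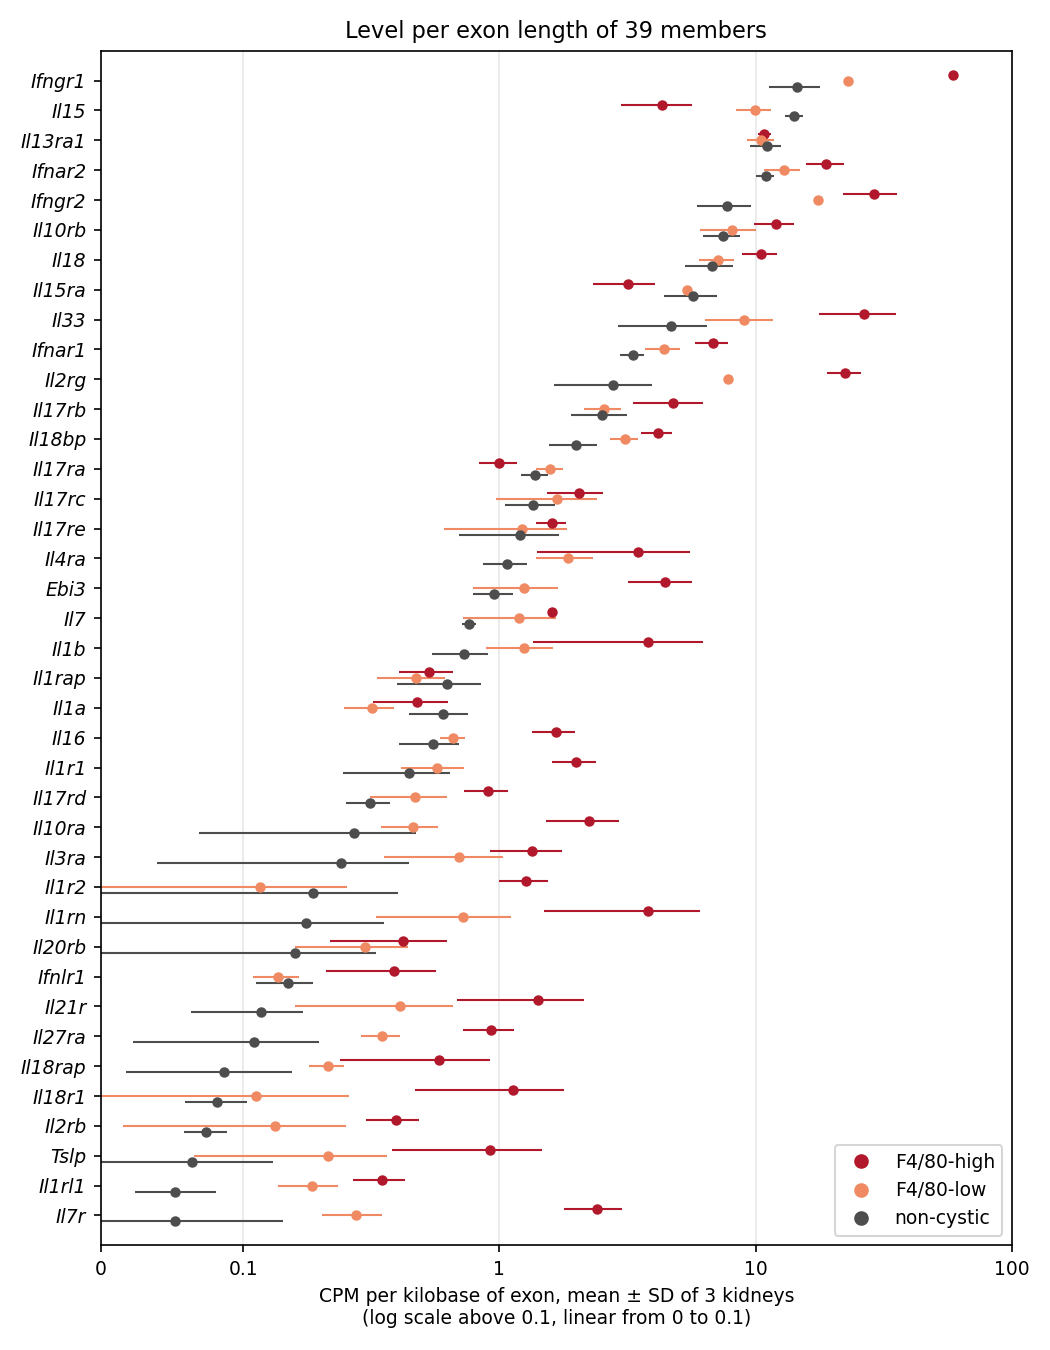
CPM per kilobase of exon (x axis, log scale above 0.1 and linear below) of the 39 tested members in F4/80-high, F4/80-low and non-cystic regions, as means with bars of ± SD over 3 kidneys that stop at 0, sorted by the non-cystic level. The highest F4/80-high mean is that of Ifngr1 at 59.1, and Il15, Il15ra and Il17ra are the members whose F4/80-high point lies to the left of both others with at least 1 called difference.

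Whether the difference between F4/80-high and F4/80-low regions exceeded that between F4/80-low and non-cystic regions was tested as a contrast of its own, added after the values were seen. By edgeR 0 members were called (0.0249% of all genes were). At an unadjusted p below 0.05, 2 were higher (Il1r2 and Il18r1, where 2.98% of all genes were) and 2 lower (Il17ra and Il15, where 9.12% of all genes were). Both higher ones had passed the filter through their F4/80-high sums alone, which favours this direction. Il1r2 had the largest such difference, 4.41 ± 1.58 on the log2 scale (adjusted p = 0.302), with its F4/80-low level at or below the non-cystic one. For Il2rg the steps were nearly equal (difference -0.05 ± 0.38, adjusted p = 0.978). These data do not separate genes that rise in steps over the region types from those that are higher in F4/80-high regions alone.

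Genes that act next to these receptors were read from a list of 30, of which 29 were tested. In F4/80-high against non-cystic regions 14 were called higher and 2 lower, where 19.7% and 19.5% of all genes were. The median log2 fold change of the list was 0.65. Against F4/80-low regions 5 were higher and 2 lower (median 0.43), where 10.3% and 14.0% of all genes were. In F4/80-low against non-cystic regions 3 were higher (Socs2, Gsdmd and Irf1) and 0 lower (median 0.27), where 1.51% and 0.0249% of all genes were. The 3 genes for cytokine maturation and release were called higher in F4/80-high regions against both others. Against non-cystic regions, Casp1, the protease that activates IL-1β and IL-18, was higher by 3.03 ± 0.37 on the log2 scale (adjusted p = 0.000332), Gsdmd, the pore former through which they leave the cell, 2.75 ± 0.27 (adjusted p = 0.000124), and Pycard, the inflammasome adaptor, 1.57 ± 0.15 (adjusted p = 0.000118). Gsdmd was higher already in F4/80-low against non-cystic regions (1.43 ± 0.27, adjusted p = 0.0345). Among regulators of IL-1 type receptors, Irak3, an inhibitory kinase-like protein, was higher in F4/80-high against non-cystic regions (2.78 ± 0.57, adjusted p = 0.00471), while Sigirr, an inhibitory receptor of epithelium, was lower. Sigirr averaged 20.8 CPM in F4/80-high tissue, 70.9 CPM in F4/80-low tissue and 83.4 CPM in non-cystic tissue (log2 fold change -2.01 ± 0.18 against non-cystic, adjusted p = 8.79e-05). Irak1, the kinase downstream of MyD88, was lower as well (-0.72 ± 0.15, adjusted p = 0.00527). Myd88 (0.89 ± 0.20, adjusted p = 0.00663) and Irak4 (0.74 ± 0.25, adjusted p = 0.0401) were higher.

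On the Janus kinase side, only Jak2 of the 4 Janus kinases was called in F4/80-high against non-cystic regions (log2 fold change 0.65 ± 0.20, adjusted p = 0.0292). Stat3 (0.90 ± 0.19, adjusted p = 0.00495) and Stat4 (2.59 ± 0.64, adjusted p = 0.0104) were higher there too, and Stat2, Stat5a, Stat5b and Stat6 did not pass the test. The feedback inhibitors Socs2 (1.61 ± 0.18, adjusted p = 0.000223) and Socs3 (3.22 ± 0.46, adjusted p = 0.000691) were higher, whereas Cish, a target of STAT5, gave -0.35 ± 0.27 (adjusted p = 0.331). Of the interferon regulatory factors, Irf1 (2.17 ± 0.29, adjusted p = 0.000500), Irf7 (1.68 ± 0.49, adjusted p = 0.0252) and Irf9 (1.71 ± 0.24, adjusted p = 0.000727) were higher in F4/80-high regions and Irf3 was not called. Irf1, an early target of interferon-γ signalling, was also called in F4/80-low against non-cystic regions (1.53 ± 0.28, adjusted p = 0.0307).

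**Figure D5:**
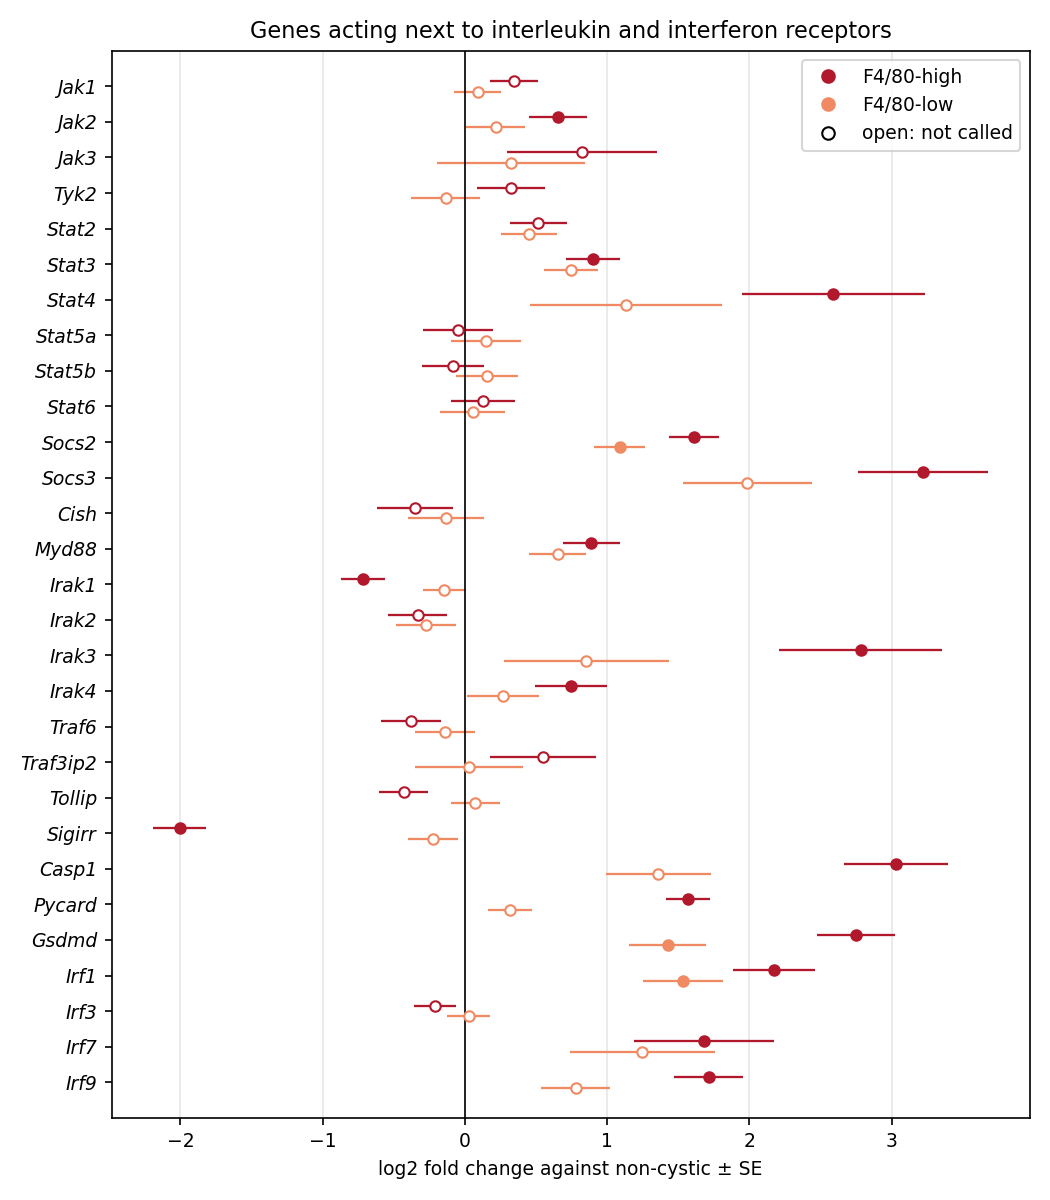
Log2 fold change against non-cystic regions (x axis, with SE bars) of 29 tested genes that act next to the receptors, for F4/80-high (dark red) and F4/80-low (orange) regions. Filled points were called, 14 higher and 2 lower (Irak1 and Sigirr) in F4/80-high and 3 higher in F4/80-low regions, and open points were not called.

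A named list of 44 other interleukin and interferon genes was read as well. Of these, Il36a, Il36b, Il36g and Il36rn were not matched to a gene of the count table and were not read. Of the 25 ligand genes found, 0 entered the test, 7 had at least 10 counts and 9 had no count in any library, among them Il9, Il13, Il17a, Il17b and Il21. The 25 ligands together summed to 2.00 to 4.25 CPM in F4/80-high tissue, 1.13 to 1.45 CPM in F4/80-low tissue and 1.17 to 1.79 CPM in non-cystic tissue. Il23a, the private subunit of IL-23, had 48 counts in F4/80-high, 5 in F4/80-low and 9 in non-cystic regions. Ifng, the ligand of the receptor with the highest level here, had 12 counts in F4/80-high, 9 in F4/80-low and 0 in non-cystic regions. Of 15 other receptor chains, 7 were tested. In F4/80-high against non-cystic regions 5 were higher (Il5ra, Il1rl2, Csf2rb, Csf2rb2 and Crlf2), where 19.7% of all genes were. In that comparison 1, Il11ra1, was lower, where 19.5% of all genes were. Crlf2, which pairs with Il7r to bind TSLP, was at 3.11 ± 0.42 on the log2 scale (adjusted p = 0.000554), and Csf2rb, the beta chain for IL-3, IL-5 and GM-CSF, 2.88 ± 0.45 (adjusted p = 0.00108). Il11ra1, the IL-11 receptor, averaged 32.1 ± 9.60 CPM in F4/80-high tissue, 67.6 ± 5.55 CPM in F4/80-low tissue and 78.3 ± 13.0 CPM in non-cystic tissue (log2 fold change -1.29 ± 0.23 against non-cystic, adjusted p = 0.00201).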

How the data were processed

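RNA was sequenced in 18 libraries, and the authors deposited raw counts per gene and library, without normalization. The submitters' processing notes list HTSeq 0.11.0, fastp 0.20.1, FastQC 0.11.9 and the mm10 build (GRCm38). Aligner, annotation and strand option: not given in the sources used here. Per the labels' protocols, a kit for low RNA input was used, and it does not mark the strand. Exons of 12 members overlap a gene on the other strand and those of 3 a gene on the same strand, by the reference annotation, and their counts are less certain.

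Both libraries from 1 kidney and region type were added up, and edgeR 4.0.16 under R 4.3.3 was run on the 9 sums (TMM scaling, low-count filter filterByExpr, robust quasi-likelihood F test, kidney as block, 4 residual degrees of freedom). Testing covered 16034 genes with 99.8% of the counts. SE is |log2 fold change| divided by √F. The block rests on the labels, since sums with the same number share a kidney: their deviations from the region means correlated with a median r of 0.11 over 9 pairs (-0.20 to 0.37), against -0.02 over 18 pairs of different kidneys.

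The members and lists were chosen with earlier results of these data known. Values by kidney are given for members called against F4/80-low or in F4/80-low regions, those with the smallest p against non-cystic regions, and every tested ligand. Alternatives were 2 scalings (DESeq2 1.42.0 size factors and total counts), 2 filters, the DESeq2 Wald test, other treatments of the kidneys, libraries and region types (limma 3.58.1 for the random effect), and each kidney and library left out. The contrast of the steps and the counts of members whose libraries did not overlap were added after the data were seen. No molecular identifiers were counted. The intervals and floors take each read as a separate molecule, so they may be too narrow even for counting error, and they leave out the spread between kidneys. Motifs were searched in RefSeq promoters. One gene of the list of signalling genes is not reported here.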

Additional observations from a re-analysis of the deposited data

Results flagged for a closer look

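In each region type, the highest and lowest of the 6 libraries of each tested member were compared with the next one (Dixon's test at the 95% level). Of 117 sets of 6 libraries, 13 held a library that stood apart, and chance alone gives about 5% of such sets.

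Among the F4/80-high libraries, kidney 2 replicate 1 was high for Il1rn, at 58.5 CPM with the next library at 24.9 CPM, and low for Ifngr1, at 147 CPM with the next at 170.7 CPM. Kidney 3 replicate 2 was high for Il18rap, at 11.8 CPM.

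Of the F4/80-low libraries, kidney 2 replicate 2, the one with the high share of Spp1, was high for Il1r2 (1.02 CPM) and Il18bp (14.6 CPM). Kidney 3 replicate 1 was high for Il18r1 (2.19 CPM), and kidney 2 replicate 1 was low for Il17rb (5.90 CPM).

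Of the non-cystic libraries, kidney 2 replicate 2 was high for Il1rn (3.20 CPM), Il33 (23.5 CPM) and Il7r (0.985 CPM), and kidney 2 replicate 1 for Ifnlr1 (1.90 CPM). Kidney 3 replicate 1 was high for Il1rap (11.8 CPM), and kidney 3 replicate 2 was low for Il1a (0.227 CPM, 1 count). The causes were not tested.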

How the results depend on the processing

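No called member changed direction in the alternatives that gave it a value, which were 32 for each, except 31 for Il1rl1, Il18r1, Il18rap and Il2rb, 28 for Il1r2 and 26 for Tslp, which did not pass the filter in the others. In F4/80-high against non-cystic regions, 14 of 30 calls were made in every one (Il1rn, Il1r1, Il33, Il2rg, Il7r, Il15, Il21r, Il10ra, Ifnar1, Ifngr1, Ifngr2, Il27ra, Il16 and Il17rd), in F4/80-high against F4/80-low regions 3 of 21 (Il33, Il2rg and Ifngr1), and in F4/80-low against non-cystic regions 0 of 3. Members called higher in F4/80-low against non-cystic regions numbered 3, and 6 with the 18 libraries and the kidney as replicate block, 0 with the biol rep 1 libraries alone, 1 with the biol rep 2 libraries alone, and 0 to 6 with a kidney or a library left out (0 without kidney 1). Those called higher in F4/80-high against F4/80-low regions numbered 18, and 28 with total counts, 8 and 9 with the biol rep 1 or 2 libraries alone, and 5 to 20 with a kidney or a library left out (5 without kidney 1, 11 without kidney 2). Those called lower there numbered 3, and 1 with total counts, 1 with the compared region types alone, 0 and 1 with the biol rep 1 or 2 libraries alone, and 1 to 3 with a kidney or a library left out. Against non-cystic regions, F4/80-high members called higher numbered 28, and 17 to 29 with a kidney or a library left out (17 without kidney 1), and those called lower 2, and 1 with total counts, 1 with the biol rep 2 libraries alone, and 1 to 3 with a kidney or a library left out. Leaving out kidney 1 also ended calls not named above. These were Il1r2, Il1rl1, Tslp, Il3ra and Ifnar2 against non-cystic regions, and Il1r1, Il1r2, Il7r, Il10ra and Il16 against F4/80-low regions. The call of Il10rb against non-cystic regions ended without kidney 2 or kidney 3. Without the replicate block 2 members were higher in F4/80-low against non-cystic regions, and the counts of the other comparisons stayed at 28 and 2, and 18 and 3. Il13ra1 turned from -0.03 to 0.59 in F4/80-high against non-cystic regions with total counts. The cause of these changes was not tested, beyond the smaller number of kidneys or libraries where some were left out. The 3 kidneys and the low counts of several receptors limit what can be called.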
